A study of Mus musculus with 56 samples.

Results

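Sertoli cells are the somatic cells that line the seminiferous tubules, hold the developing germ cells and close the blood-testis barrier. Follicle-stimulating hormone reaches the testis through its receptor on these cells, and they answer with inhibins and other secreted proteins. SOX9 and WT1 keep their identity, and their number sets how many germ cells a testis can carry. Loss of Fmr1, which encodes the RNA-binding protein FMRP, is known for enlarged testes, so 10 genes widely used as Sertoli cell genes were followed in testis of Fmr1 knockout (KO) and wild-type (WT) mice. They were taken by name: the transcription factors Sox9, Wt1, Gata1 and Rhox5, the receptor Fshr, the hormone genes Inhba, Inhbb and Amh, the signal Dhh and the secreted protein Clu. In testis 9 of the 10 were analysed, among 15960 genes, and all 9 were among the 15465 genes tested after a filter on low counts. Inhba was not analysed here in testis.

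In GRCm38 with the GENCODE M21 annotation, the genes other than Inhba, Fshr, Gata1 and Rhox5 lie at chr11:112782224-112787760 (Sox9, plus strand), chr2:105126529-105173616 (Wt1, plus), chr1:119415465-119422248 (Inhbb, minus), chr10:80805243-80807648 (Amh, plus), chr14:65968483-65981547 (Clu, plus) and chr15:98891152-98898540 (Dhh, minus).

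The series holds 56 mouse RNA-seq samples. Used here were 3 WT and 3 Fmr1 KO samples each of testis, cortex, hippocampus, cerebellum, liver and muscle, and 5 libraries of N2a cells, a mouse neuroblastoma line, after small interfering RNA against Fmr1 or a non-targeting control. The labels give tissue, genotype and replicate number and no age, strain or kind of knockout allele. Testis libraries held 13752391 to 15879775 counts. Nothing in the labels says that replicates came from separate animals, so p-values measure the spread between these samples. In whole testis, fewer Sertoli cells, less RNA per Sertoli cell and a larger share of RNA from other cells cannot be told apart.

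Fmr1 itself was 37.3, 33.9 and 33.1 counts scaled to library size (CPM) in the testis libraries WT 1, WT 2 and WT 3 and 8.41, 8.85 and 9.58 CPM in KO 1, KO 2 and KO 3. In KO testis it fell by 1.95 ± 0.11 on the log2 scale (SE, n = 3 per group, edgeR quasi-likelihood test, Benjamini-Hochberg adjusted p = 9.8e-19). The groups were far apart, as their labels say.

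None of the 9 Sertoli cell genes passed the test in testis, 0 of 9 at an adjusted p under 0.05 with edgeR, while 4.27% of all tested genes passed it with edgeR (2% with a higher and 2.28% with a lower KO level). DESeq2 gave 6 of the 9 an adjusted p and called 0, against 4.81% of the 9771 genes to which it gave one, 281 higher and 189 lower in KO. Before adjustment, 4 of 9 had a p under 0.05 (Sox9, Wt1, Inhbb and Clu), all lower in KO, against 18.3% of all tested genes in either direction and 9.53% lower. The log2 fold change was below 0 for 8 of 9, against 51.3% of all tested genes, with a median of -0.21 beside -0.01 over all genes. KO and WT values did not overlap for 2 of 9, Clu and Amh, both lower in KO, against 20.6% of all tested genes in either direction and 9.75% lower. WT 1 was the highest library for 7 of 9 members and KO 3 the lowest for 6 of 9. Without WT 1 the count below 0 was 6 of 9 and the median -0.12.

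**Figure D1:**
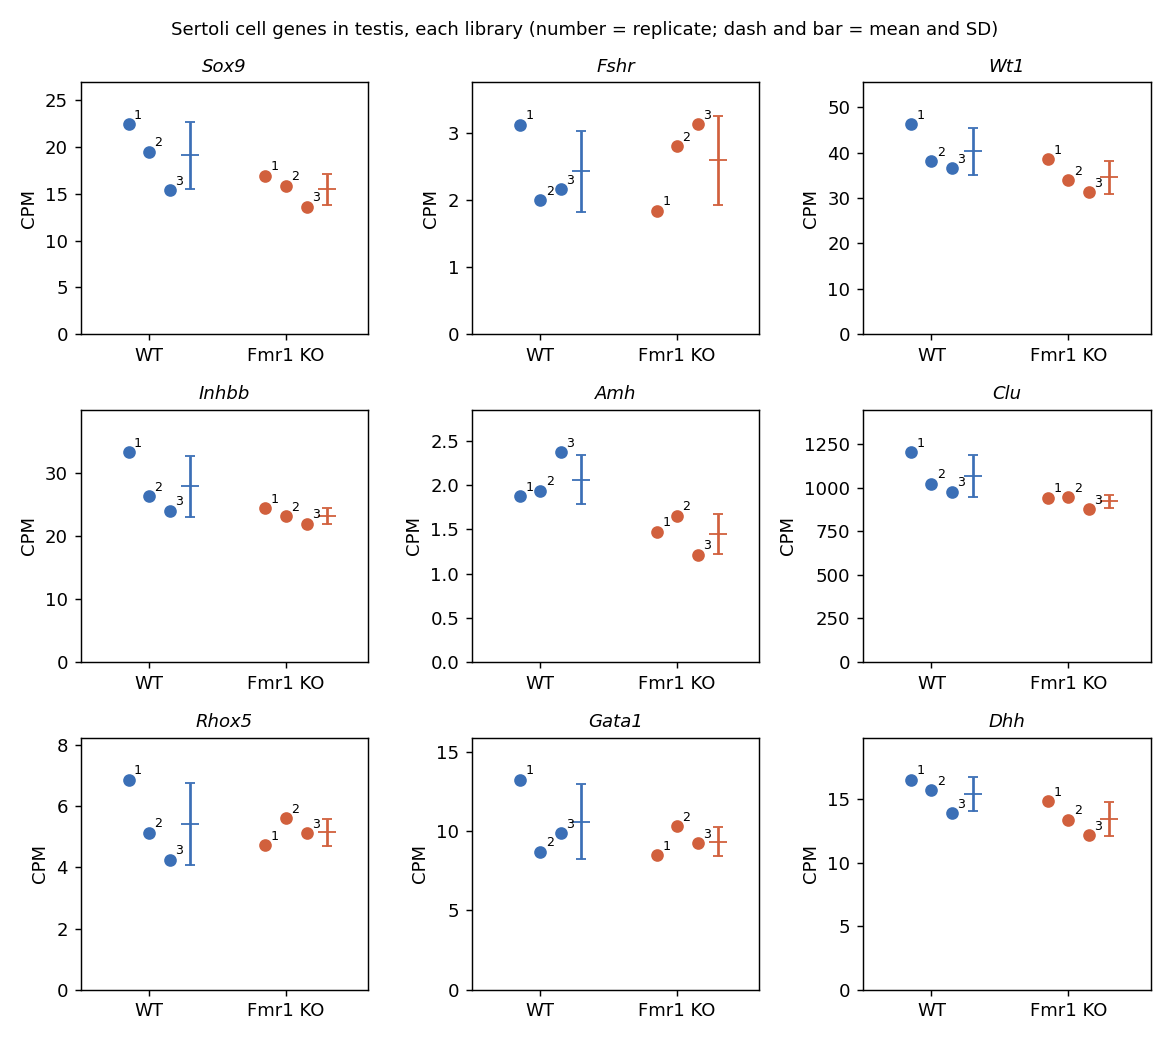
Each panel shows 1 gene in testis in CPM (linear axis from 0), with 1 point per library numbered by replicate and the mean ± SD of each group beside the points. WT 1 lies highest in 7 of the 9 panels, and only Amh and Clu have all KO points below all WT points.

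Among the transcription factors, Sox9, which drives and keeps Sertoli cell fate, was 22.4, 19.5 and 15.3 CPM in WT 1, WT 2 and WT 3 and 16.9, 15.9 and 13.6 CPM in KO 1, KO 2 and KO 3. Its mean was 19.1 ± 3.53 CPM in WT and 15.5 ± 1.68 CPM in KO (SD, n = 3), a log2 fold change of -0.31 ± 0.12 (SE, edgeR adjusted p = 0.134). WT 3 lay among the KO libraries, and without it Sox9 was called lower in KO (-0.44, edgeR adjusted p = 0.0288), whereas without WT 1 the value was -0.18 (adjusted p = 0.54).

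Wt1, a zinc-finger factor needed for the gonad to form and for Sertoli cells to persist, was 46.2, 38.1 and 36.6 CPM in WT 1 to WT 3 and 38.5, 33.9 and 31.3 CPM in KO 1 to KO 3. The means were 40.3 ± 5.16 and 34.6 ± 3.65 CPM (SD, n = 3), with a log2 fold change of -0.22 ± 0.09 (edgeR adjusted p = 0.154). KO 1 exceeded WT 2 and WT 3, and without KO 1 Wt1 was called lower (-0.30, edgeR adjusted p = 0.0304), whereas without WT 1 the value was -0.12 (adjusted p = 0.608).

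Gata1, the erythroid GATA factor that Sertoli cells also use, was 13.3, 8.70 and 9.87 CPM in WT 1 to WT 3 and 8.48, 10.3 and 9.26 CPM in KO 1 to KO 3. WT 1 alone lay above every KO library, and the log2 fold change of -0.17 ± 0.14 (edgeR adjusted p = 0.567) became 0.02 without it. Rhox5, an X-linked homeobox gene under androgen control in Sertoli cells, was 6.88, 5.13 and 4.25 CPM in WT 1 to WT 3 and 4.72, 5.60 and 5.11 CPM in KO 1 to KO 3. All 3 KO libraries lay inside the WT range, and the log2 fold change was -0.07 ± 0.18 (edgeR adjusted p = 0.884) with all libraries and 0.13 without WT 1. Both genes are on chromosome X, as is Fmr1.

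Fshr, the follicle-stimulating hormone receptor, was the 1 member above 0. It was 3.12, 2.002 and 2.16 CPM in WT 1 to WT 3 and 1.84, 2.80 and 3.13 CPM in KO 1 to KO 3, from 25 to 49 counts per library. The log2 fold change was 0.11 ± 0.26 (edgeR adjusted p = 0.871), and it turned to -0.05 without KO 3 and to -0.02 without WT 2. The 95% interval of the KO difference ran from -24.6% to 54.3%. The receptor's promoter is known to be driven through an E-box, and the stretch before its start is shown because it is the member promoter in which more than 1 of the searched motifs was found. These 250 bases lie at chr17:89200676-89200925 (GRCm38.p6, RefSeq, minus strand), with GATAA or its reverse complement and the E-box CACGTG in capitals:

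Fshr promoter: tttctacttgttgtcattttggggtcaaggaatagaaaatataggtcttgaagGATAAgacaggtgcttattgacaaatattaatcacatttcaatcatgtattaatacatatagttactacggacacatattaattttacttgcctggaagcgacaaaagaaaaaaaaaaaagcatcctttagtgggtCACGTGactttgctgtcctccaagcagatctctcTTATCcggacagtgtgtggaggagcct

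The E-box starts 61 bases before the gene start and the GATAA matches 197 and 27 bases before it, the latter on the other strand. RefSeq promoters were matched for 6 of the 10 genes, Inhba, Inhbb, Dhh, Fshr, Gata1 and Rhox5. That of Rhox5 lay outside the gene's GENCODE span and matched none of its transcripts, and that of Gata1 lay inside its gene. Whether Sertoli cells use these promoters was not tested. Over 32851 promoter windows of 300 bases, searched on both strands, CACGTG was in 7.15% and GATAA in 25.4%. Among the 6 genes CACGTG was in Fshr and GATAA in Fshr and Dhh.

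The hormone genes code for secreted factors of the TGF-beta family. Inhbb, the beta B subunit of inhibin B, was 33.3, 26.3 and 24.0 CPM in WT 1 to WT 3 and 24.3, 23.1 and 21.9 CPM in KO 1 to KO 3. Its means were 27.8 ± 4.83 and 23.1 ± 1.21 CPM (SD, n = 3), a log2 fold change of -0.27 ± 0.10 (edgeR adjusted p = 0.125). KO 1 exceeded WT 3 alone, and without WT 3 Inhbb was called lower in KO (-0.36, edgeR adjusted p = 0.0432), whereas without WT 1 the value was -0.12 (adjusted p = 0.61).

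Amh, anti-Müllerian hormone, is made in quantity by immature Sertoli cells and little by adult ones. It was 1.87, 1.94 and 2.38 CPM in WT 1 to WT 3 and 1.48, 1.66 and 1.21 CPM in KO 1 to KO 3, from 19 to 33 counts per library. All KO libraries lay below all WT libraries, yet the log2 fold change of -0.51 ± 0.29 did not pass the test (edgeR adjusted p = 0.363), with a 95% interval of -53.0% to 5.48%. The gene lies 319 bases from its nearest coding neighbour, Sf3a2.

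Dhh, desert hedgehog, is the signal by which Sertoli cells act on Leydig and peritubular cells. It was 16.5, 15.7 and 13.9 CPM in WT 1 to WT 3 and 14.8, 13.4 and 12.1 CPM in KO 1 to KO 3, with a log2 fold change of -0.20 ± 0.12 (edgeR adjusted p = 0.388). KO 1 lay above WT 3, so the groups overlapped, and the value was -0.13 without KO 3. The gene shares bases with Rhebl1 on the same strand and with an antisense gene, and the deposited counts could be split between them.

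Clu, clusterin, is an abundant chaperone that Sertoli cells secrete into the tubule. It was 1206, 1022 and 977 CPM in WT 1 to WT 3 and 942, 946 and 876 CPM in KO 1 to KO 3, with no overlap between the groups. The means were 1069 ± 121 and 922 ± 39.4 CPM (SD, n = 3), a log2 fold change of -0.21 ± 0.07 that missed the threshold (edgeR adjusted p = 0.0523, unadjusted p = 0.00234). Clu passed it with RLE factors (adjusted p = 0.0491), with library size only (0.0271), without WT 3 (0.0136) and without KO 1 (0.0307), and had an adjusted p of 0.324 and a log2 fold change of -0.12 without WT 1. In the authors' deposited table, 8 of the 9 members had a log2 fold change below 0, and among the 6 with an adjusted p the lowest was 0.0565.

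Splicing of the members was read from the authors' junction reads of skipped exons, in which 4 exons of Wt1, Fshr and Amh were listed. The table does not say which set of 3 replicates is WT and which KO, so no direction is given. The exon that varied most at useful depth was the well-known alternative exon of Wt1, 51 bases at chr2:105144142-105144192 (GRCm38, plus strand, exon 5 of 10, transcript ENSMUST00000111099.1). It is shown because Sertoli and other Wt1-expressing cells make the protein with and without it:

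Wt1 alternative exon: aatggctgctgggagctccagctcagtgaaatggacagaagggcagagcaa

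Its inclusion was 61.4%, 34.6% and 23.3% in the first set and 37.0%, 35.3% and 60.6% in the second, from 50 to 83 junction reads per replicate. The sets overlapped (two-sided exact permutation p = 0.7, where 3 against 3 cannot go below 0.1). With all replicates the spread within a set was larger than the difference of their means, 39.8% ± 19.6 and 44.3% ± 14.2 (SD, n = 3). That difference, first minus second set, was -4.55 points and ran from -15.4 to 3.69 when 1 replicate was left out. A 78-base exon of Wt1 was included at 96.8% to 100% and a 143-base exon of Amh at 88.5% to 100%. A 72-base exon of Fshr ranged from 40.4% to 100%, on 4 to 11 junction reads only. The authors' false discovery rate was 1.0 for all 4 exons.

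Other genes of Sertoli cells were counted from lists chosen by role. All lists below were drawn up with earlier results of these data known. In whole testis the cells that gave the RNA of a listed gene cannot be named. Of 22 further transcription factors and secreted or transport genes tested, 5 fell, 1 rose and 19 had a log2 fold change below 0, with a median of -0.24. Over all tested genes, to be set beside the lists below as well, edgeR called 2.28% lower and 2% higher, and 51.3% were below 0. Without WT 1, 2 of the 5 still fell, Nr5a1 and Ptgds. Among 8 transcription factors Nr5a1, the steroidogenic factor SF-1 shared with Leydig cells, fell by 0.39 ± 0.09 on the log2 scale (33.8 ± 2.62 CPM in WT and 26.0 ± 1.37 in KO, edgeR adjusted p = 0.0081). Etv5, an ETS factor of Sertoli cells and spermatogonia, rose by 0.51 ± 0.10 (17.6 ± 1.80 CPM in WT and 25.1 ± 1.159 in KO, edgeR adjusted p = 0.00193), and its groups were well apart. Nr5a1 was not called without WT 2, KO 2 or KO 3.

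Among 14 secreted and transport genes 4 fell and none rose. Ptgds, prostaglandin D synthase, fell by 0.84 ± 0.07 on the log2 scale, from 135 ± 13.7 CPM in WT to 75.7 ± 7.10 in KO (edgeR adjusted p = 3.6e-11), with every KO library below every WT library. The testis cystatins Cst12 and Cst9 fell by 0.39 ± 0.09 and 0.33 ± 0.08 (edgeR adjusted p = 0.00397 and 0.0134). Inha, the alpha subunit that pairs with the product of Inhbb, fell by 0.29 ± 0.08, from 80.0 ± 7.61 to 65.7 ± 7.70 CPM (edgeR adjusted p = 0.0231), although the highest KO library exceeded the lowest WT library. Cst9, Cst12 and Inha were not called without WT 1 or without KO 2, Cst9 and Inha also not without KO 3, Inha not without WT 2 and Cst9 not with DESeq2. Etv5 and Ptgds were called under all 11 alternatives tried.

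Of 13 blood-testis barrier genes 2 fell, the claudin gene Cldn3 by 0.41 ± 0.09 and the connexin 43 gene Gja1 by 0.35 ± 0.08 on the log2 scale (edgeR adjusted p = 0.00325 and 0.00872), and the list's median was -0.05 with all libraries and -0.19 without KO 2. Gja1 was not called without WT 1 or without KO 3, and Cldn3 not without KO 2. In the inhibin, activin and AMH pathway 2 of 18 fell, Inha and the AMH receptor gene Amhr2, which Leydig cells also carry, by 0.37 ± 0.07 (edgeR adjusted p = 0.00208), and Amhr2 was not called with DESeq2 or without WT 1. Of 12 hedgehog pathway genes 1 fell, the receptor and target gene Ptch1, by 0.64 ± 0.17 (8.38 ± 1.90 CPM in WT and 5.39 ± 1.04 in KO, edgeR adjusted p = 0.023). Ptch1 was not called with DESeq2 or without WT 1, WT 2 or KO 3. None of 15 genes of the follicle-stimulating hormone pathway was called with edgeR or DESeq2 (4 at an unadjusted p under 0.05), and their median was -0.02 with all libraries and 0.05 without WT 1.

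Markers of other testis cells moved too. Of 8 Leydig cell markers 4 fell (Hsd3b1 by 0.51 ± 0.10, Star, Cyp17a1 and Insl3), with a median of -0.29, and 1 of the 8 was called with DESeq2. Without WT 1 none was called, 5 of 8 were below 0 and the median was -0.15. Their summed level per length was 3516 to 4573 TPM (transcript counts scaled to length and library) in WT and 3161 to 3471 TPM in KO, while that of the 9 Sertoli members was 1078 to 1397 and 998 to 1074 TPM, both highest in WT 1. Clu made up most of the members' sum, 1294 of 1397 TPM in WT 1 and 927 of 998 TPM in KO 3. Of 8 spermatocyte markers 3 rose, Sycp1 by 0.35 ± 0.07, Hormad1 by 0.30 ± 0.07 and Sycp2 by 0.27 ± 0.06, and of 8 elongating spermatid markers 2 fell, Tnp1 by 0.28 ± 0.06 and Tnp2 by 0.29 ± 0.07 (edgeR adjusted p from 0.00184 to 0.00923 for these 5). Of the 5, Sycp1 was called under all 11 alternatives and the others were not called without WT 2, KO 2 or KO 3. The spermatocyte markers summed to 887 to 991 TPM in WT and 956 to 1124 in KO, and the elongating spermatid markers to 87601 to 92283 and 82620 to 84663. No peritubular, endothelial, macrophage, spermatogonial or round spermatid marker was called with edgeR or DESeq2 (3 at an unadjusted p under 0.05), with medians from -0.02 to 0.12. Among these lists the peritubular, endothelial, macrophage and spermatogonial medians changed sign with the library left out. The part of these cell types in the values of the Sertoli genes was not tested.

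**Figure D2:**
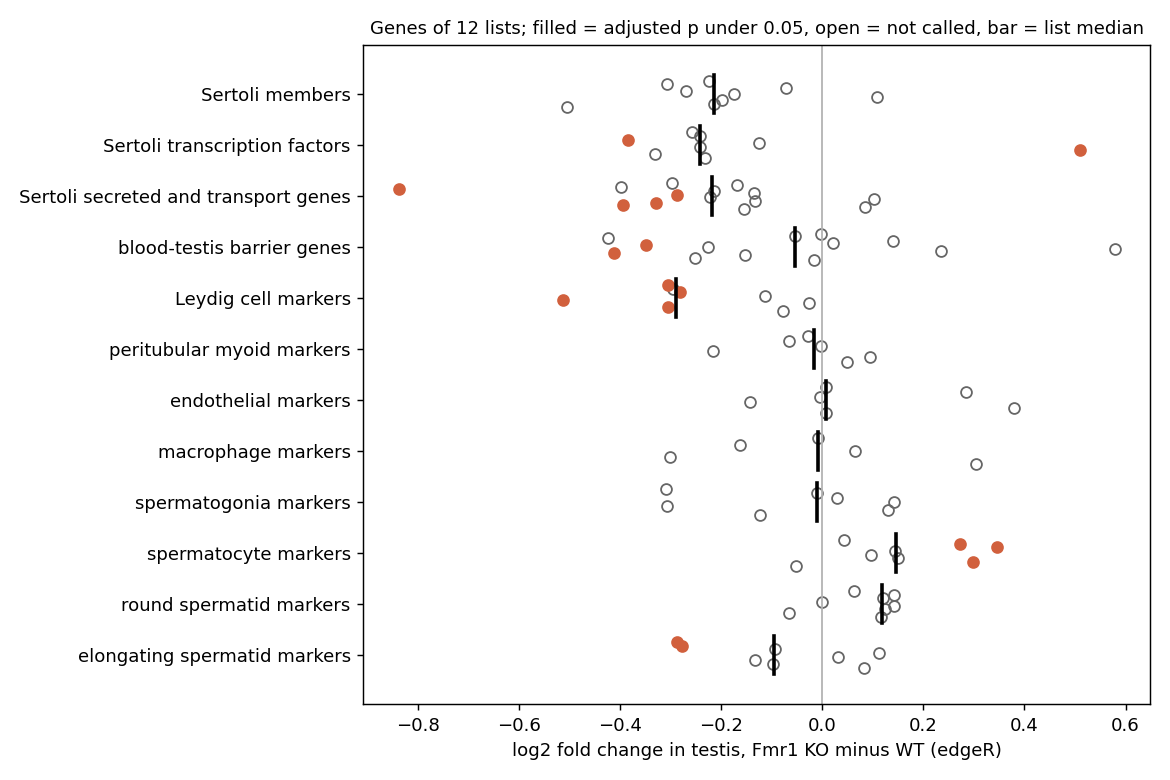
Each point is 1 tested gene of a list, placed at its edgeR log2 fold change in testis (KO minus WT), filled where the adjusted p was under 0.05, and the bar is the list's median. Medians of the Sertoli members, Sertoli transcription factors, Sertoli secreted genes and Leydig markers lie between -0.29 and -0.21, and that of the spermatocyte markers at 0.15, while without WT 1 the first 4 were -0.12, -0.16, -0.11 and -0.15.

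Levels per length placed the members far apart in testis. Clu had a median of 1001 TPM over the 6 libraries (927 to 1294) and ranked 99 of 15960 genes, with no overlap with the next member. It was followed by Wt1 at 21.3, Rhox5 at 14.9, Dhh at 10.9, Inhbb at 9.75, Gata1 at 9.41 and Sox9 at 6.88 TPM, in which each neighbouring pair overlapped. Amh and Fshr came last at 2.06 and 1.92 TPM, below every Sox9 value, and their ranges overlapped too.

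Other tissues served as contrast, and each table was normalized on its own apart from the 3 brain regions, which share 1 table. Fshr, Wt1, Rhox5 and Gata1 were analysed in no tissue other than testis. Sox9, also a gene of astrocytes and other glia, had a median of 31.0 TPM in cerebellum, 25.7 in hippocampus, 17.6 in cortex, 6.88 in testis and 1.99 in both liver and muscle. The libraries of cerebellum and hippocampus overlapped, as did those of liver and muscle, while cortex and testis stood clear of their neighbours in this order. Clu, also made by astrocytes and liver cells, was highest in liver at 1826 TPM (1693 to 2022), then 1463 in hippocampus, 1142 in cortex, 1001 in testis, 740 in cerebellum and 79.6 in muscle. Testis overlapped with both cortex and hippocampus, whereas liver and muscle stood clear of all other tissues.

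Inhba, the beta A subunit of activin A, was measured in 4 tissues, with medians of 10.7 TPM in cortex, 6.57 in hippocampus, 3.19 in cerebellum and 2.81 in liver. Inhbb was highest in testis (9.13 to 14.0 TPM), above every library of the other tissues, of which cerebellum (6.70 to 8.59) came nearest. Amh had 0.27 to 2.01 TPM in the brain regions against 1.41 to 2.69 in testis, and Dhh 0.70 to 2.72 TPM in muscle against 9.50 to 13.1 in testis. Rhox5 was far higher in N2a cells, 507 to 694 TPM over 5 libraries, than in testis, with a median of 14.9 and a highest library of 20.3 TPM.

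**Figure D3:**
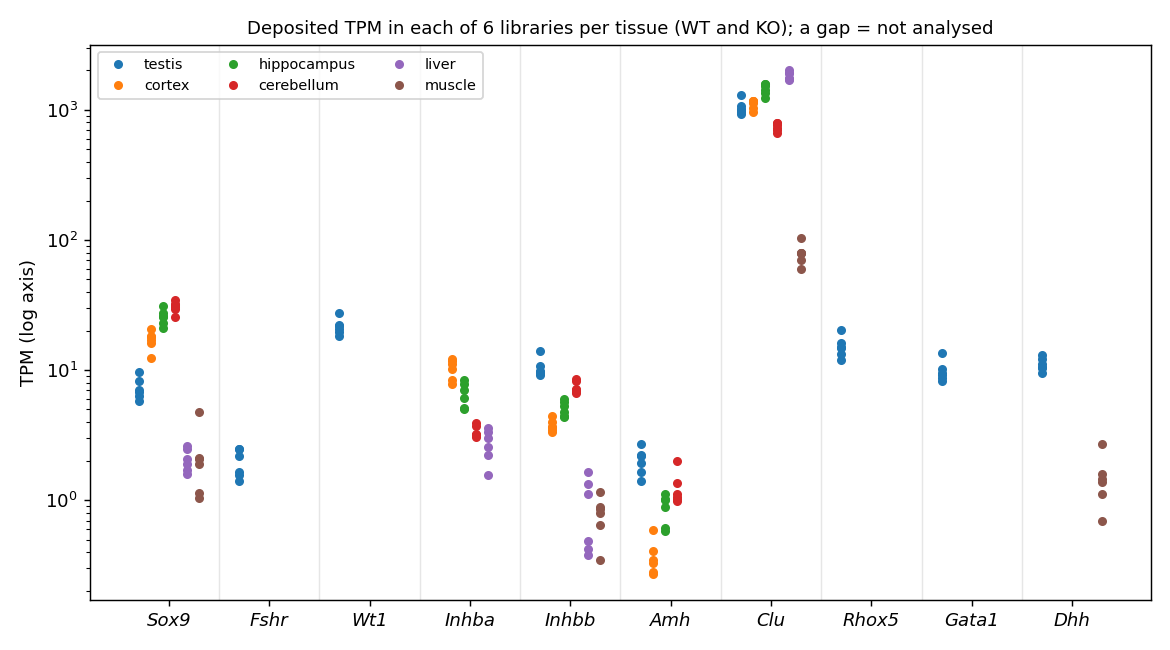
Deposited TPM (log axis) of each member in each of 6 libraries per tissue, WT and KO together, with colours for tissues and gaps where a gene was not analysed. Clu lies between 666 and 2022 TPM in every tissue but muscle, and Inhbb, Amh and Dhh have their highest median in testis.

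Genotype differences outside testis were tested for 4 members each in cortex, liver and muscle and 5 each in hippocampus and cerebellum. None was called with edgeR or with DESeq2. Over all tested genes edgeR called 0.0203% (cortex), 0.209% (hippocampus), 0.226% (cerebellum), 0.411% (liver) and 4.04% (muscle). DESeq2 called more genes than edgeR in each of these tissues, with its counts given in the last section. At an unadjusted p under 0.05 there were Clu in cortex, Clu and Sox9 in cerebellum and Inhba in liver, and none in hippocampus or muscle. The shares of all tested genes at that level were 21% (cortex), 12.5% (hippocampus), 8.72% (cerebellum), 11.4% (liver) and 25.9% (muscle).

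Clu had a log2 fold change below 0 in each tissue, -0.30 ± 0.18 in muscle, -0.17 ± 0.06 in cortex, -0.15 ± 0.05 in cerebellum, -0.14 ± 0.08 in hippocampus and -0.07 ± 0.13 in liver (SE, n = 3 per group), though that of liver was 0.01 without WT 1. That of muscle was -0.10 without WT 3 and -0.48 without WT 2, and that of hippocampus -0.08 without KO 2 and -0.23 without KO 3. In cerebellum it was 467, 471 and 436 CPM in WT 1 to WT 3 and 418, 394 and 427 CPM in KO 1 to KO 3 (edgeR adjusted p = 0.367, and 0.0329 without WT 3). In cortex it was 712, 697 and 697 CPM in WT 1 to WT 3 and 580, 668 and 618 CPM in KO 1 to KO 3 (edgeR adjusted p = 0.157). KO and WT did not overlap in these 2 regions, as was so for 14.7% of tested genes in cerebellum and 26% in cortex, and they overlapped in hippocampus (18.8% of tested genes not overlapping), liver (17.3%) and muscle (31.4%). The share of all genes with the same sign in every tissue was not counted. The labels do not say whether the tissues came from the same mice.

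Sox9 in cerebellum was 37.7, 44.1 and 45.4 CPM in WT 1 to WT 3 and 46.0, 52.1 and 47.7 CPM in KO 1 to KO 3 (log2 fold change 0.19 ± 0.08, edgeR adjusted p = 0.486). Amh in cerebellum was 0.545, 0.569 and 0.515 CPM in WT and 0.741, 1.08 and 0.598 CPM in KO (0.57 ± 0.29, edgeR adjusted p = 0.616), from 15 to 33 counts per library. In both genes every KO library lay above every WT library, which for Amh is the opposite order to testis. Without cerebellum KO 2 the value of Amh was 0.29, and without cerebellum WT 1 that of Sox9 was 0.12. Inhba in liver was 3.40, 2.55 and 2.87 CPM in WT 1 to WT 3 and 2.20, 1.87 and 1.37 CPM in KO 1 to KO 3, all KO below all WT (-0.69 ± 0.28, edgeR adjusted p = 0.395).

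In muscle the genotype check was weaker. Fmr1 was 11.99, 17.6 and 14.2 CPM in the libraries labelled WT 1 to WT 3 and 8.06, 10.2 and 10.3 CPM in those labelled KO 1 to KO 3, and it did not pass the test (edgeR adjusted p = 0.0734). Dhh, Inhbb, Clu and Sox9 there overlapped between the genotypes, and Sox9 went from -0.76 ± 0.47 to 0.04 without WT 3. Muscle calls over all genes were 381 higher and 131 lower, and 672 and 56 with library size only, which moved the median log2 fold change of all genes by 0.15.

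**Figure D4:**
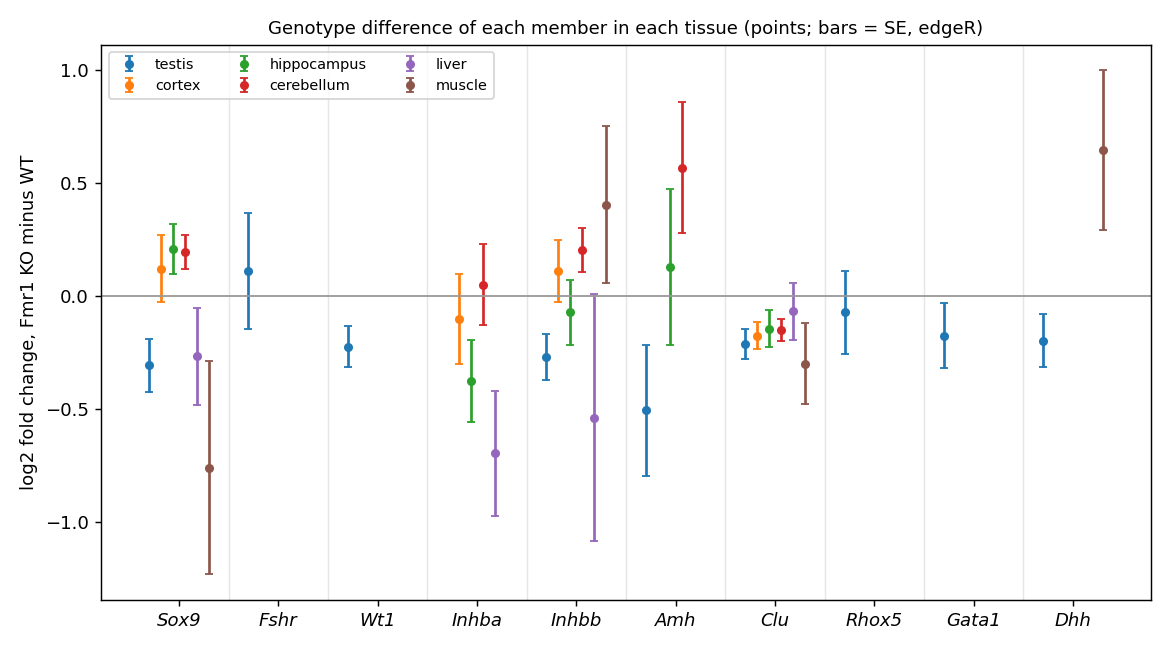
Log2 fold change (KO minus WT) of each member in each tissue where it was tested, with its SE as a bar (edgeR, 3 libraries per genotype). Clu lies below 0 in all 6 tissues, called in none and at -0.07 ± 0.13 in liver, and Amh lies at -0.51 in testis and 0.57 in cerebellum.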

How the data were processed

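Per the submitters' processing notes, the tools named are CASAVA, FastQC 0.11.8, Trimmomatic 0.39, Bowtie2 2.3.5, STAR 2.6.1, RSEM 1.3.1 and DESeq2 1.16.1, with build GRCm38, and neither their order nor the annotation is given in the sources used here. The authors deposited whole-number counts per gene and TPM (transcript abundance scaled by length and library), per the file headers, and because RSEM is named the counts may be rounded estimates. The authors' deposited log2 fold changes and adjusted p-values of testis were used only for comparison. Per the file headers, the skipped-exon table holds rMATS junction reads of 2 unnamed sets, from which inclusion levels were computed with the deposited form lengths, beside the authors' false discovery rate.

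Each tissue was tested on its own 6 samples with edgeR 4.0.16 (R 4.3.3): filterByExpr, TMM factors, quasi-likelihood F test and Benjamini-Hochberg adjustment over all tested genes, called under 0.05, after a check on simulated data. CPM use the TMM-scaled library size, SD is between replicates, and intervals are 95%. At 13752391 to 15879775 counts per testis library the biological coefficient of variation was 6.23%. Between-gene levels use TPM. Alternatives were DESeq2 1.42.0, RLE factors, library size only, no filter, a replicate block, leaving out each sample and, for brain, 1 fit of 18 samples. Positions follow GENCODE M21, and promoters RefSeq. All members were named, with Fmr1 and, in each list, the called genes (at most the 4 of largest change). The members and lists were chosen with earlier results of these data known. Of the muscle columns, 4 of no labelled sample were not used. Lists of epididymis, adipose, blood, brain, liver and skeletal muscle markers, with 1, 2, 4, 3, 1 and 2 genes tested in testis, had none called with edgeR or DESeq2 on all 6 samples. Before adjustment, 2 blood markers and 1 adipose marker were lower in KO (edgeR p under 0.05). Called lower were 1 blood marker without WT 1, 1 without KO 3, and 1 liver marker with no filter on low counts.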

Additional observations from a re-analysis of the deposited data

Results flagged for a closer look

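Amh stood out because its genotype difference ran in opposite directions in testis and cerebellum, with groups that did not overlap in either tissue. Its log2 fold change (KO minus WT) was -0.51 in testis, where all 3 KO libraries lay below all 3 WT libraries, and 0.57 in cerebellum, where all 3 KO libraries lay above and the value was 0.29 without KO 2. The difference between the tissues was not tested, and neither value passed the test in its own tissue (edgeR adjusted p = 0.363 and 0.616). Both rest on 15 to 33 counts per library.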

How the results depend on the processing

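Low counts limit Fshr and Amh in testis, and 3 samples per genotype limit every comparison. In testis, 1 member (Clu) was called with RLE factors and 1 with library size only against 0, and leaving out 1 sample gave 0 to 3 members. No member was called in another tissue except 0 to 1 in cerebellum when 1 sample was left out. Over all genes, leaving out 1 sample gave 173 to 1256 calls in testis (661 with all samples), 1 to 1102 in cortex (3), 1 to 21 in hippocampus (31), 6 to 256 in cerebellum (33), 18 to 559 in muscle (512) and 13 to 284 in liver (49). DESeq2 called 904 genes in cortex, 247 in hippocampus, 92 in cerebellum, 1093 in muscle and 277 in liver. One fit of the 18 brain samples called 1277 in cortex and 11 in cerebellum. With a replicate block 377 genes were called in testis, 31 in muscle, 24 in liver, 1 in cortex and 1 in hippocampus, and no member in any tissue. Same-numbered testis samples did not deviate together (r from -0.059 to -0.00256, 0 of 6 best with their own number). In hippocampus same-numbered samples had r from -0.686 to 0.619, and WT 1 with KO 2 had 0.803. In the remaining tissues same-numbered r lay between -0.37 (cortex) and 0.064 (cerebellum). The numbers were therefore not taken as pairs. Signs turned for some members when 1 sample was left out, giving ranges in testis of -0.30 to 0.018 for Gata1, -0.21 to 0.13 for Rhox5 and -0.046 to 0.33 for Fshr (-0.02 without WT 2). In cortex they were -0.28 to 0.022 for Inhba (0.0175 without KO 2) and -0.036 to 0.21 for Sox9, and in hippocampus -0.063 to 0.34 for Amh (-0.04 without KO 3) and -0.25 to 0.0045 for Inhbb (0.000376 without KO 1). The others were Inhba in cerebellum (-0.058 to 0.12), Clu in liver (-0.16 to 0.00995) and Sox9 in muscle (-1.13 to 0.036). The cause was not tested for any of these.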
